A study of Mus musculus with 6 samples.

Results

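Fc receptors bind the constant part of antibodies. The 6 genes described here encode the receptors of myeloid cells for immunoglobulin G (Fcgr1, Fcgr2b, Fcgr3 and Fcgr4), the neonatal Fc receptor (Fcgrt) and the common gamma chain (Fcer1g). They were chosen by name, as the rows whose Ensembl identifiers map to these symbols, and are 6 of 26789 genes in the table. All 6 passed the filter on low values, a mean of at least 10 normalized counts, as did 18007 genes in all.

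Fcgr1, Fcgr3 and Fcgr4 are activating receptors whose ligand-binding chains have no signalling motif of their own. They pair with the common gamma chain, a small adaptor whose tail carries the activation motif that Src-family kinases phosphorylate and that the kinase Syk binds. Fcgr2b is the inhibitory receptor of the family: its own tail recruits the phosphatase encoded by Inpp5d. The neonatal Fc receptor is related to MHC class I molecules, pairs with beta-2 microglobulin (B2m) and returns immunoglobulin G from endosomes to the cell surface. Microglia, the resident macrophages of the brain, carry the immunoglobulin G receptors and take up antibody-coated material through them.

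The study asked how a maternal diet during early gestation alters microglia in the nucleus of the solitary tract (NST). The NST is the first central relay of taste, and gustatory terminal fields are pruned there after birth. Control mice were C57Bl/6 offspring of dams on a control diet, and E3–E12 diet mice were those whose mothers ate low-sodium chow between E3 and E12 of the pregnancy. Both groups were sampled at P15, which the study places shortly before microglia are expected to act in the pruning of gustatory terminals. Each group had 3 libraries, and each library was made from the pooled tissue of several mice. By the methods these were littermates, so each library stands for a litter of its own. The protocol in the methods selects cells with magnetic beads against CD11b while the description deposited with the data names laser microdissection, so the isolation step is uncertain. The question for each gene was whether its level in microglia differed between the diets. During the low-sodium period those mothers also drank distilled water, and afterwards they were returned to standard chow and tap water, so the effects of chow and water cannot be told apart.

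Values of single libraries are given in the order of replicates 1, 2 and 3 of a group. The labelled cell type was checked first against 12 microglia markers, all of which were in the table and above 0 in every library. Their summed level was 108600, 531800 and 263300 normalized counts in the controls, and 106500, 250400 and 331200 in E3–E12 diet mice. Csf1r, the receptor for colony-stimulating factor 1, had the highest mean normalized count of them, followed by the fractalkine receptor gene Cx3cr1. Replicate 1 of either diet thus had the lowest microglia marker level of its group. Control replicate 2 stood apart in the other direction, with the highest marker level and with 10640 genes listed at 0, against between 3459 and 7135 in the other 5 libraries. In these bulk samples, fewer microglia and less RNA of a gene per cell cannot be told apart. Log2 fold changes whose sign turned without control replicate 2 are given both ways for the 6 genes and for the list genes whose fold change is printed.

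The reads behind a value are known only roughly. Low values clustered near multiples of a step that differed between libraries, and between 69.7% and 84.1% of them lay within 0.1 of a whole multiple. The remaining low values lay off these multiples, so 1 step per library does not convert every gene, and the read numbers that follow are rough and may be wrong for a single gene. If that step is what 1 read is worth, the controls held about 12460000, 8810000 and 21980000 assigned reads, and the E3–E12 diet libraries about 8350000, 9980000 and 15560000. On that basis Fcgr4, the lowest of the 6 genes, rested on about 32, 88 and 156 reads in the controls and about 31, 25 and 111 in E3–E12 diet mice. The other 5 genes rested on about 205 reads or more in each library.

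With the tests used here, no difference between the diets was detected in any of the 6 genes. With limma on log2(normalized count + 1), two-sided and with Benjamini-Hochberg adjustment over 18007 genes, 0 of the 6 passed an adjusted p of 0.1, and 0 of 18007 genes (0.0%) passed it across the table (smallest adjusted p = 0.225). At an unadjusted p under 0.05, limma called 0 of the 6 genes and 327 genes in all (1.82%). With a mean-variance trend in the same test, an alternative chosen after seeing the data, 0 genes passed and 268 had an unadjusted p under 0.05. The groups overlapped in each of the 6 genes, whereas in 2.99% of all genes tested the E3–E12 diet values all lay above the controls and in 2.91% they all lay below. Standard errors of log2 fold changes had a median of 0.85 over all genes and lay between 0.66 and 0.92 for the 6 genes. A gene absent from the calls is therefore not shown to be unchanged: the 95% interval of each of the 6 genes reached beyond a log2 fold change of 1.6 in at least 1 direction.

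**Figure D1:**
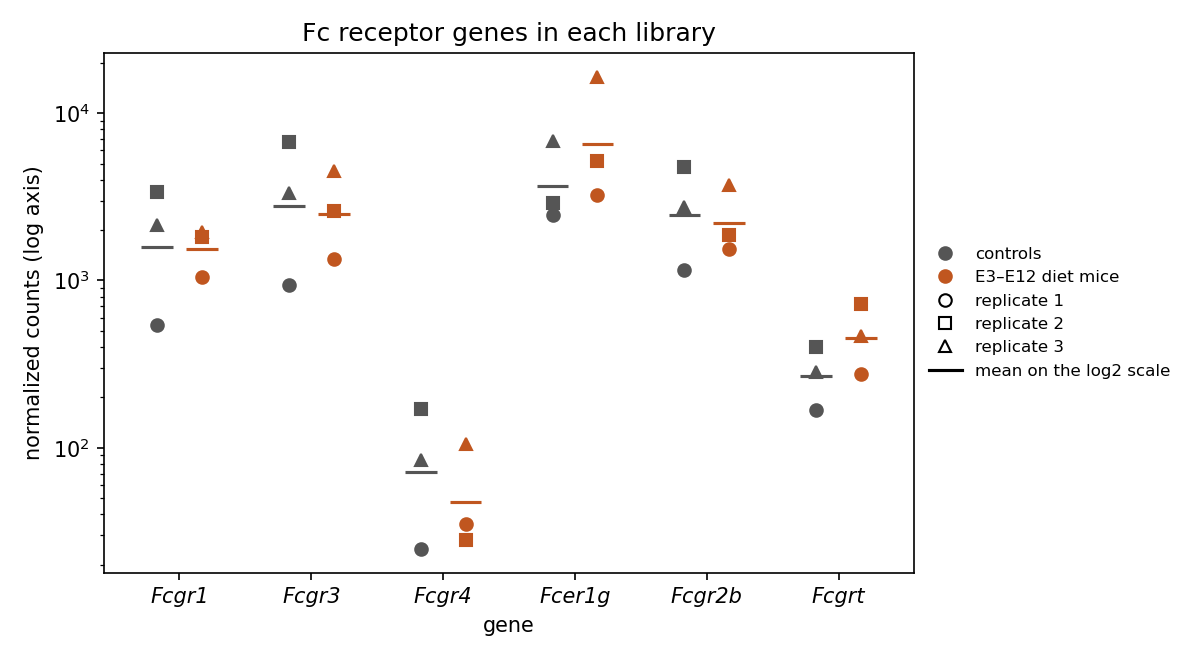
Normalized counts (log axis) of the 6 Fc receptor genes in each library, in gray for controls and in orange for E3–E12 diet mice, with 1 symbol per replicate number and a line at the mean on the log2 scale (n = 3 libraries per group). The groups overlap in each gene, Fcer1g peaks in E3–E12 diet replicate 3 at 16530 normalized counts, and Fcgr3 peaks in control replicate 2 at 6760.

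The activating receptors come first. Fcgr1 encodes the high-affinity receptor for immunoglobulin G. It had 543.6, 3397 and 2140 normalized counts in the controls, and 1046, 1809 and 1935 in E3–E12 diet mice. The controls spanned the whole range of the E3–E12 diet libraries, with replicate 1 lowest in both groups. Its mean was 2027 ± 1430 normalized counts in controls and 1597 ± 481 in E3–E12 diet mice (SD, n = 3). The log2 fold change was -0.04 ± 0.83 (SE; 95% interval -2.02 to 1.95; limma adjusted p = 0.999; exact permutation p = 1.0, where 3 libraries against 3 allow no p below 0.1). Leaving out control replicate 2 gave 0.51, control replicate 3 0.18 and E3–E12 diet replicate 1 0.24, so its sign turned with any of 3 libraries.

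Fcgr3, a low-affinity activating receptor, was the most abundant of the 3 activating receptor genes per length of exon. It had 939.5, 6760 and 3342 normalized counts in the controls, and 1337, 2592 and 4519 in E3–E12 diet mice. The highest and the lowest of the 6 values were both from controls. Group means were 3680 ± 2925 and 2816 ± 1603 normalized counts in controls and E3–E12 diet mice (SD, n = 3), and the log2 fold change was -0.15 ± 0.91 (SE; 95% interval -2.33 to 2.04; limma adjusted p = 0.999; exact permutation p = 0.9). Leaving out control replicate 2 gave 0.50, and leaving out E3–E12 diet replicate 1 gave 0.31.

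Fcgr4, which binds immunoglobulin G2 subclasses and is best known from monocytes and neutrophils, was the lowest of the 6 genes. Values were 24.9, 171 and 84.3 normalized counts in the controls, and 35.1, 28.1 and 105 in E3–E12 diet mice. Again control replicate 2 was highest and control replicate 1 lowest, and 2 of the 3 E3–E12 diet libraries were close to the low end. The log2 fold change was -0.59 ± 0.92 (SE; 95% interval -2.79 to 1.61; limma adjusted p = 0.999; exact permutation p = 0.7). Without control replicate 2 it was 0.04.

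Fcer1g, the common gamma chain through which these receptors signal, had a different profile. It had 2449, 2907 and 6808 normalized counts in the controls, and 3221, 5194 and 16530 in E3–E12 diet mice. Replicate 3 was the highest library of each group, and control replicate 2, the highest library for all 3 activating receptors, was the second lowest. Group means were 4054 ± 2395 and 8316 ± 7185 normalized counts (SD, n = 3). The log2 fold change was 0.84 ± 0.83 (SE; 95% interval -1.14 to 2.82; limma adjusted p = 0.999; exact permutation p = 0.4). Without E3–E12 diet replicate 3 it was 0.17, so most of the difference in means came from that library.

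Fcgr2b, the inhibitory receptor, followed the activating receptors. It had 1154, 4763 and 2743 normalized counts in the controls, and 1546, 1861 and 3718 in E3–E12 diet mice. The E3–E12 diet values all lay inside the range of the controls. Group means were 2886 ± 1809 and 2375 ± 1174 normalized counts (SD, n = 3), and the log2 fold change was -0.16 ± 0.75 (SE; 95% interval -1.96 to 1.63; limma adjusted p = 0.999; exact permutation p = 0.9). Leaving out control replicate 2 gave 0.31, and leaving out E3–E12 diet replicate 1 gave 0.09.

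Fcgrt, the neonatal Fc receptor, had the smallest standard error of the 6 genes. Its values were 168, 399.5 and 286 normalized counts in the controls, and 277.5, 722 and 467.5 in E3–E12 diet mice. The groups overlapped here too, since E3–E12 diet replicate 1 lay below 2 controls. Group means were 284.5 ± 116 and 489 ± 223 normalized counts (SD, n = 3). The log2 fold change was 0.76 ± 0.66 (SE; 95% interval -0.82 to 2.34; limma adjusted p = 0.999; exact permutation p = 0.3). With each library left out in turn it stayed between 0.43 and 1.11.

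**Figure D2:**
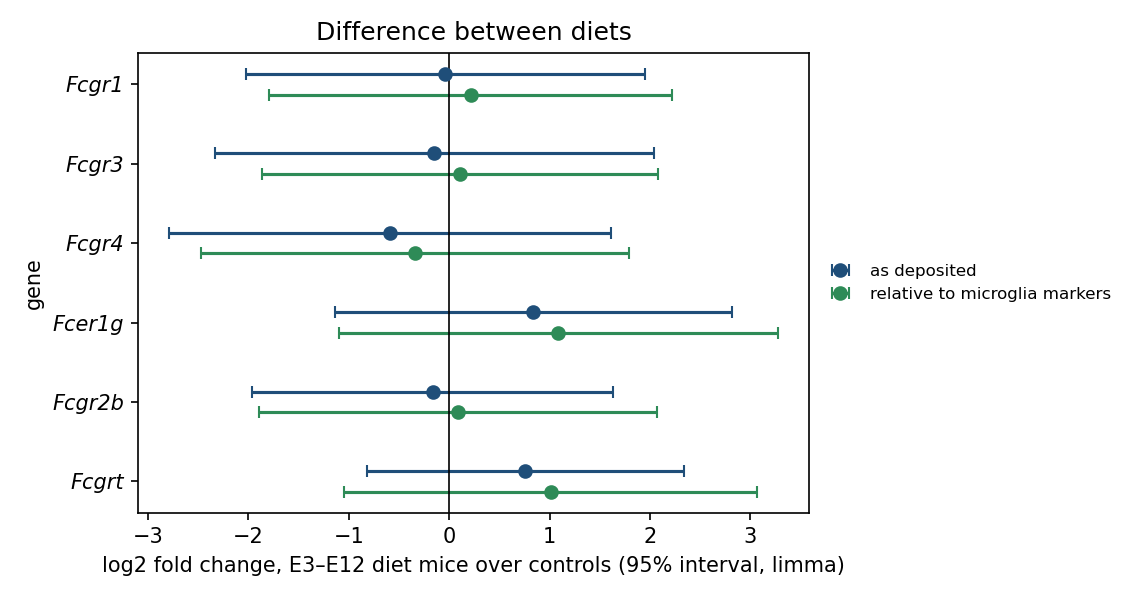
Log2 fold change of E3–E12 diet mice over controls (horizontal axis) for each of the 6 genes, with 95% intervals from limma (n = 3 libraries per group), from the values as deposited (blue) and relative to the microglia markers of the same library (green). Each interval includes 0, and the points of Fcgr1, Fcgr2b and Fcgr3 lie on opposite sides of 0 in the 2 scalings.

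The 4 immunoglobulin G receptor genes moved with the microglia markers from library to library, and the other 2 genes did so less. The log2 level of each gene was set against the mean log2 level of 11 microglia markers in the same library, leaving out Fcrls, which is itself a relative of the Fc receptors. The SD of Fcgr3 over the 6 libraries was 1.07 on the log2 scale and 0.33 relative to the markers. For Fcgr2b the SD was 0.78 before and 0.36 after, for Fcgr1 0.92 and 0.43, and for Fcgr4 1.13 and 0.64. The spread of Fcer1g was 1.02 and 0.92, and that of Fcgrt 0.72 and 0.75, so neither became much tighter. These spreads are descriptions over 6 libraries.

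On this scale Fcgr3 was at -2.25, -1.29 and -1.86 in the controls, and at -1.51, -1.89 and -1.68 in E3–E12 diet mice, as log2 differences from the marker mean. All E3–E12 diet values were inside the range of the controls. Fcer1g was at -0.87, -2.51 and -0.83 in the controls and at -0.24, -0.89 and 0.19 in E3–E12 diet mice. Control replicate 2 was the low value, and the remaining 5 libraries lay closer together, with 2 of the 3 E3–E12 diet libraries above all controls. Fcgrt was at -4.73, -5.37 and -5.40 in the controls and at -3.78, -3.74 and -4.95 in E3–E12 diet mice, so that the groups still overlapped through E3–E12 diet replicate 3. Exact permutation p-values on this scale were 0.3 for Fcer1g and 0.2 for Fcgrt.

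Scaling to the markers moved the median log2 fold change of all genes from 0.09 to 0.34, a shift of 0.25, and the limma adjusted p of each of the 6 genes was 1.0 there. Relative to the median gene, the log2 differences as deposited were -0.12 for Fcgr1, -0.23 for Fcgr3, -0.68 for Fcgr4, 0.75 for Fcer1g, -0.25 for Fcgr2b and 0.67 for Fcgrt. The marker scale moves all genes of a library alike, so it leaves these differences the same by construction. With quantile normalization they were 0.16 for Fcgr1, 0.04 for Fcgr3 and 0.02 for Fcgr2b, so the sign for these 3 genes depends on the scaling. It did not for Fcgr4, Fcer1g and Fcgrt, at -0.73, 0.97 and 0.79 with quantile normalization.

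Ratios inside a library do not depend on a factor shared by all its genes, but would on one that differs between genes. The ratio of Fcer1g to Fcgr3 was 2.61, 0.43 and 2.04 in the controls, and 2.41, 2.003 and 3.66 in E3–E12 diet mice. The other libraries thus held at least 2.003 normalized counts of the gamma chain per count of Fcgr3, several times the ratio of control replicate 2. For Fcer1g over Fcgr1 the values were 4.50, 0.86 and 3.18 in the controls and 3.08, 2.87 and 8.54 in E3–E12 diet mice. Over Fcgr4 they were 98.5, 16.98 and 80.8 in the controls and 91.9, 185 and 157.5 in E3–E12 diet mice. Each of the 3 ratios overlapped between the groups. Their log2 means were higher in E3–E12 diet mice by 0.87 for Fcgr1, 0.98 for Fcgr3 and 1.44 for Fcgr4 as the denominator, and by 0.16, 0.18 and 0.64 without control replicate 2.

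The ratio of activating to inhibitory receptor counts was the steadiest of the ratios. In normalized counts, the sum of Fcgr1, Fcgr3 and Fcgr4 over Fcgr2b was 1.31, 2.17 and 2.03 in the controls. It was 1.56, 2.38 and 1.76 in E3–E12 diet mice. Fcgr2b has 5790 bases of exon, against 2589 for Fcgr1, 1736 for Fcgr3 and 1256 for Fcgr4. Length was not taken into account, so libraries can be compared by this ratio, but its size is not a balance of transcripts. Replicate 1 was lowest in both groups, and the groups overlapped. Its SD over the 6 libraries was 0.32 on the log2 scale, and the group means differed by 0.06. Fcgrt over its partner B2m ranged from 0.00574 in control replicate 2 to 0.0651 in E3–E12 diet replicate 2. The controls were at a log2 ratio of -6.25 ± 1.11 and E3–E12 diet mice at -5.11 ± 1.09 (SD, n = 3), a difference of 1.14, about as large as the spread within a group. Leaving out control replicate 2 gave 0.54, and leaving out E3–E12 diet replicate 2 gave 0.56.

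Levels can be compared between genes only per length. Per kb of annotated exon, the mean over the 6 libraries was 7077 ± 6097 normalized counts for Fcer1g, 1871 ± 1245 for Fcgr3, 700 ± 380 for Fcgr1, 454 ± 240.5 for Fcgr2b, 184 ± 92.4 for Fcgrt and 59.5 ± 45.8 for Fcgr4 (SD, n = 6). The adaptor thus stood above each of its receptors in mean level, and Fcgr4 was the lowest. Within a library, Fcer1g was above Fcgr3 in 5 of 6 libraries, by 1.88 ± 1.08 on the log2 scale per kb. Fcgr3 was above Fcgr1 in 6 of 6, by 1.33 ± 0.32. Fcgr1 was above Fcgr2b in 6 of 6, by 0.58 ± 0.38, but their order turned with the length used. With the longest protein-coding transcript in place of all exons, a choice made after seeing the data, Fcgr2b stood above Fcgr1 in 4 of 6 libraries and the difference of Fcgr1 over Fcgr2b was -0.13 ± 0.38, within its spread. Fcgr2b was above Fcgrt in 5 of 6 libraries, by 1.28 ± 0.77, and Fcgrt above Fcgr4 in 6 of 6, by 1.85 ± 1.21.

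Of the 6 genes, 4 lie together on chromosome 1 of the mouse genome (GRCm38, GENCODE M21). Fcgr2b is at chr1:170958617-170976547 on the reverse strand, Fcgr4 at chr1:171018920-171029761 on the forward strand, Fcgr3 at chr1:171051174-171064935 on the reverse strand and Fcer1g at chr1:171229572-171234365 on the reverse strand. Fcgr1 is at chr3:96282909-96293969 and Fcgrt at chr7:45092990-45103851, both on the reverse strand. Over the 6 libraries, Pearson's r of log2 levels among the 3 neighbours was 0.98 for Fcgr2b and Fcgr3, 0.96 for Fcgr2b and Fcgr4 and 0.90 for Fcgr3 and Fcgr4. It was 0.96 between Fcgr3 and Fcgr1, which are on different chromosomes, and 0.47 between Fcgr3 and Fcer1g, which share one. Of the 7 other genes of the table between Fcgr3 and Fcer1g, each had overlapping groups.

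**Figure D3:**
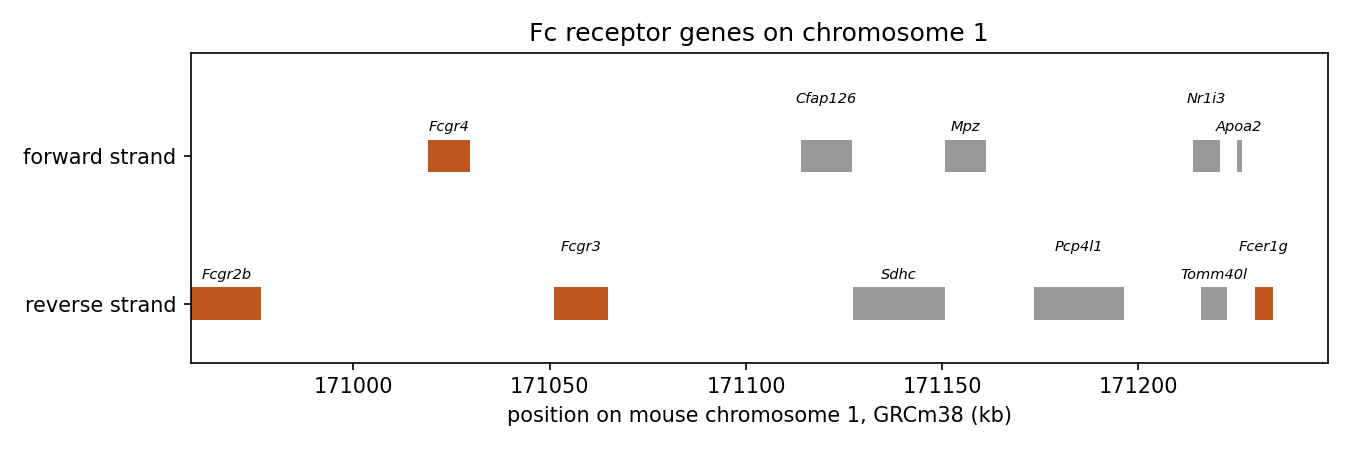
Map of mouse chromosome 1 (GRCm38, position in kb) from Fcgr2b to Fcer1g, with each gene of the table as a bar to scale on its strand, in orange for the Fc receptor genes and in gray for the others. Fcgr2b, Fcgr4 and Fcgr3 are neighbours, and 7 other genes lie between Fcgr3 and Fcer1g.

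Fcgr2b and Fcgr3 are near-identical over part of their coding sequence, so reads from there may be lost or assigned to either. Of the 50-base windows in the transcripts of Fcgr3, 9.58% also occur in Fcgr2b, and 2.92% of those of Fcgr2b occur in Fcgr3. Over all other genes, the shared part of Fcgr2b was 6.95%. With 75-base windows the shares were 5.42% and 1.63%. The other 4 genes had no shared window at either length. Exon 4 of the 2 genes is shown because it holds the longest run shared within a single exon, 113 bases: of its 255 bases, 250 are identical (98.0%). The sequences are from GENCODE M21 transcripts, at chr1:170966446-170966700 for Fcgr2b and chr1:171053939-171054193 for Fcgr3 (GRCm38, reverse strand), written 5′ to 3′ with the 5 bases that differ in capitals.
Fcgr2b exon 4: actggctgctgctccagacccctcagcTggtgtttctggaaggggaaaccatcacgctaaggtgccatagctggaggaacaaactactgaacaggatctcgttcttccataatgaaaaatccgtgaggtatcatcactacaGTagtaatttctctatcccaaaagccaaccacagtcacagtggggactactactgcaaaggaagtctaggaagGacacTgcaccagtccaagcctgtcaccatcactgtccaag
Fcgr3 exon 4: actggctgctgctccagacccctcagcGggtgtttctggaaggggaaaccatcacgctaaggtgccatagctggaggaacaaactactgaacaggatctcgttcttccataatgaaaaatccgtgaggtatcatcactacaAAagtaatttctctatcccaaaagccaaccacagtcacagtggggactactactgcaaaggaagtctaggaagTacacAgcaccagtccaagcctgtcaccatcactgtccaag
The levels of both genes are therefore uncertain by the reads that fall in such stretches. Fcgr2b also overlaps the antisense gene Gm38204 over 155 bases of exon, and without strand in the counting, reads from these bases cannot be assigned to either.

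The promoters of the 3 activating receptors share a short motif that was not used to choose the genes. The 6 letters GAGGAA, the core of the sites bound by the myeloid factor PU.1, were searched on both strands of the promoters of RefSeq (GRCm38.p6), which run from 250 bases before to 50 bases after the start of a gene. They occur in promoters of Fcgr1, Fcgr3 and Fcgr4, and not in those of Fcgr2b, Fcgrt and Fcer1g, against 28.3% of 32851 promoters in all. The longer form GAGGAAGT, which contains the first, was in Fcgr4 and in 3.2% of all promoters. The motif lies 55, 6 and 22 bases before the gene start that RefSeq gives for Fcgr1, Fcgr3 (the nearer of 2 starts) and Fcgr4. The 40 bases around it are at chr3:96294002-96294041 (reverse strand), chr1:171059387-171059426 (reverse strand) and chr1:171018887-171018926 (forward strand), written 5′ to 3′ with the motif, here as its reverse complement, in capitals.
Fcgr1: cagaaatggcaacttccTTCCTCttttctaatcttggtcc
Fcgr3: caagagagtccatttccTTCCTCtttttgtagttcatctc
Fcgr4: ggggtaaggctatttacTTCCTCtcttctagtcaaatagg
The match is a description of these letters, and a link between the motif and the levels was not tested. Fcgr2b, which does not hold them in this window, followed the activating receptors as closely as they followed each other, with Pearson's r over the 6 libraries of 0.98 with Fcgr3, 0.96 with Fcgr4 and 0.91 with Fcgr1. The value with Fcgr3 is limited by the near-identical stretches whose reads may be assigned to either gene.

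Genes with the most similar profiles were found among the 18007 tested, by Pearson's r of log2 levels over the 6 libraries. For Fcgr3 they were Serinc3 (r = 0.999), Galnt7 (r = 0.995) and Tcn2 (r = 0.993). Fcgr2b was closest to Sowahc, Mbnl2 and Arsb (r = 0.99 each), Fcgr1 to Cysltr1, Cd276 and Haspin (r = 0.99 each), and Fcgr4 to A630001G21Rik, Zdhhc20 and Sp2 (r = 0.99 each). The closest to Fcer1g were Gtpbp1 (r = 0.996), Zfp712 and Lgals9 (r = 0.99 each), and to Fcgrt Gm49405, Tfip11 and Tbccd1 (r between 0.98 and 0.99). Of 18006 other genes, r was above 0.95 with 172 genes for Fcgr3, 121 for Fcgr2b, 74 for Fcgr1, 69 for Fcgr4, 34 for Fcer1g and 14 for Fcgrt.

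Genes that act downstream of the receptors were measured from a list of 16 kinases, adaptors and phosphatases. All 16 were tested and limma called 0 of them at an adjusted p of 0.1 and 0 at an unadjusted p under 0.05. Their median log2 fold change was -0.22, against 0.09 for all genes tested, with 4 above 0 and 12 below, and the groups overlapped in each. Lyn, the Src-family kinase that phosphorylates the gamma chain, had the highest mean normalized count of the list. It had 4186, 21560 and 7946 normalized counts in the controls, and 3093, 8607 and 10260 in E3–E12 diet mice (log2 fold change -0.46 ± 0.85, SE). Inpp5d, the lipid phosphatase recruited by Fcgr2b, had 8076 ± 4517 normalized counts in controls and 7641 ± 3771 in E3–E12 diet mice (SD, n = 3), a log2 fold change of -0.07 ± 0.75. (SE) Control replicate 2 was the highest library for both. Without it, the log2 fold changes were 0.17 for Lyn and 0.35 for Inpp5d, and the median of the list was 0.11 with 10 of 16 genes above 0, so these signs rest on that library.

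Of 13 partners and other immunoglobulin receptors, 10 were in the table used here and 7 were tested, with 0 past an adjusted p of 0.1 in limma and 0 at an unadjusted p under 0.05. Their median log2 fold change was -0.38, and 1 was above 0. B2m, the partner of the neonatal receptor, had 6400, 69600 and 18970 normalized counts in the controls, and 10700, 11090 and 32390 in E3–E12 diet mice. Control replicate 2 was the highest library for B2m, as it was for each immunoglobulin G receptor, while Fcgrt was highest in E3–E12 diet replicate 2. Fcrls, the Fc receptor-like gene that marks microglia in mice, had 14410 ± 14560 normalized counts in controls and 8352 ± 3700 in E3–E12 diet mice (SD, n = 3; log2 fold change -0.30 ± 0.96, SE). Leaving out control replicate 2 turned the log2 fold change of Fcrls to 0.55 and that of B2m from -0.38 to 0.51. The median of the list was then -0.06, with 3 of 7 genes above 0.

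The gamma chain also serves other receptors. Of 10 listed, 5 were in the table used here and 4 were tested, with 0 past an adjusted p of 0.1 and 0 at an unadjusted p under 0.05 in limma. Clec4n, which encodes the lectin receptor dectin-2, was the most abundant, at 134 ± 128.5 normalized counts in controls and 73.5 ± 23.6 in E3–E12 diet mice (SD, n = 3), and Pira2 was next, at 15.5 ± 11.0 and 16.0 ± 11.1. The log2 fold change of Clec4n was -0.44 with all libraries and 0.32 without control replicate 2. Clec4e, which encodes the lectin receptor Mincle, was the 1 gene of this list whose groups did not overlap. It had 10.2, 24.8 and 21.1 normalized counts in the controls, and 4.57, 5.42 and 10.1 in E3–E12 diet mice, so that the lowest control and the highest E3–E12 diet library nearly met. Between these 2 libraries the gap was less than the rough worth of 1 read. That worth was 0.776 normalized counts in control replicate 1 and 0.942 in E3–E12 diet replicate 3, so Clec4e rests on few reads. The log2 fold change was -1.34 ± 0.63 (SE; limma adjusted p = 0.999), and 2.91% of all genes tested were lower without overlap.

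The ligands were looked at through 8 immunoglobulin genes, of which 5 were in the table used here and 2 were tested, with 0 called by limma at an adjusted p of 0.1 and 0 at an unadjusted p under 0.05. Ighm, the heavy chain of immunoglobulin M, had 2096, 7650 and 6092 normalized counts in the controls, and 2085, 3876 and 7616 in E3–E12 diet mice. Replicate 1 was again the lowest library of each group. The light chain gene Igkc was at 2.76 normalized counts or less in each library, Ighg2b at 4.69 or less, and Ighg1 was above 0 only in E3–E12 diet replicate 1, at 48.9. Jchain, the joining chain, had 13.3 ± 15.3 and 19.5 ± 12.6 normalized counts in controls and E3–E12 diet mice (SD, n = 3).

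Markers of other cells that carry Fc receptors were compared with the profiles above. Of the B cell markers, Cd79b was between 19.7 and 112 normalized counts in a library and Pax5 between 0 and 71.8, while the defining marker Ms4a1 was at 2.32 or less in each library. Natural killer cell markers (4 of 6 in the table used here) summed to 0 in control replicate 2 and E3–E12 diet replicate 2 and to 173 in E3–E12 diet replicate 1, where Klrd1 took 141. Prf1, the next most abundant, was at 28.3 or less in each library. Of the mast cell markers 2 of 6 were in the table, and both, Ms4a2 and Cma1, were at 0 in 5 of the 6 libraries. Neither the natural killer cell nor the mast cell list had its highest sum in the library that was highest for Fcer1g, and Cd79b was highest in control replicate 3.

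Neutrophil markers, as a sum, were high in 1 library where Fcgr4 was high too. All 8 were in the table and their sums were 656, 3632 and 482 normalized counts in the controls, and 884, 699 and 694 in E3–E12 diet mice, with S100a9 the most abundant, Ngp next and Elane at 0 in control replicates 2 and 3. Control replicate 2 had the highest sum of these markers and the highest Fcgr4, although Mpo was at 19.2 there and at 172 in E3–E12 diet replicate 1, and in the other 5 libraries the markers lay between 482 and 884 while Fcgr4 varied between 24.9 and 105. Monocyte markers (5 of 6 in the table) summed to 1229, 7557 and 498 in the controls and to 2913, 2180 and 254 in E3–E12 diet mice. Vcan made up most of that sum, while Ccr2, which defines inflammatory monocytes, was between 72.2 and 190 in each library and Plac8 was at 0 in 2 of them. Limma tested 7 neutrophil, 3 monocyte, 2 B cell and 1 natural killer cell markers and called 0 of them at an adjusted p of 0.1 and 0 at an unadjusted p under 0.05, while no mast cell marker passed the filter on low values. The part of these cells in the levels of the Fc receptors was not tested.

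Border-associated macrophages also carry Fc receptors, and their 8 markers were all in the table and above 0 in every library. The sums were 6021, 21070 and 8313 normalized counts in the controls, and 5656, 9385 and 9849 in E3–E12 diet mice, with Mrc1 the most abundant and F13a1 next. As with Fcgr1, Fcgr3 and Fcgr2b, replicate 1 was lowest in both groups and control replicate 2 highest. Limma called 0 of the 7 tested at an adjusted p of 0.1 and 1 at an unadjusted p under 0.05, against 1.82% of all genes tested. That gene, Pf4, which encodes platelet factor 4, was also the 1 marker here with no overlap between the groups, at 30.5, 36.5 and 173 normalized counts in the controls and 2.25, 20.3 and 12.3 in E3–E12 diet mice (log2 fold change -2.60 ± 1.02, SE; limma adjusted p = 0.999), where 2.91% of all genes tested were lower without overlap. Pf4 rests on few reads in E3–E12 diet replicate 1, where 1 read is worth roughly 1.13 normalized counts. The microglia markers, all 12 of them with a log2 fold change below 0 and a median of -0.28, gave 0 calls at either threshold. Without control replicate 2 their median was 0.20 and 10 of the 12 were above 0, so that direction rests on 1 library. The part of either cell type in the levels of the Fc receptors was not tested.

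Markers of other cells were also summed. Endothelial markers, which matter here because brain endothelium carries the neonatal Fc receptor, summed to 14050, 5316 and 14320 normalized counts in the controls, and to 14120, 9250 and 14880 in E3–E12 diet mice, with Flt1 the most abundant and Pecam1 next. All 8 were in the table, and Ly6c1 was at 0 in control replicate 2. Fcgrt was highest in E3–E12 diet replicate 2, the second lowest library for these markers. Choroid plexus markers, led by Ttr with Kl next, were highest in E3–E12 diet replicate 1, at a sum of 39780, and lowest in E3–E12 diet replicate 2, at 52.4. Astrocyte markers, led by Slc1a3 with Aqp4 next, lay between 1192 and 3435, neuron markers, led by Snap25 with Gad1 next, between 623 and 1521, and erythroid markers, led by Hba-a2 with Alas2 next, between 2.31 and 219. Limma called 0 genes of these 5 lists at an adjusted p of 0.1 and 0 at an unadjusted p under 0.05. The median log2 fold change was 1.36 for endothelial markers (5 of 8 above 0) and 0.855 for astrocyte markers (5 of 5 above 0). For neuron, choroid plexus and erythroid markers it was 0.31, -1.46 and -1.11. Without control replicate 2, the 5 medians were -0.22, 0.68, -0.13, -2.79 and -2.56, in the same order. The CD11b selection described in the methods is meant to leave out cells that lack CD11b, such as endothelium, but the isolation step is uncertain. The part of the cells of these lists in the levels of Fcgrt and Fcer1g was not tested.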

How the data were processed

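RNA of microglia from the NST of P15 mice was sequenced in 3 libraries per diet, paired-end, with the read length given as 75 bases in the labels and differently in the methods. The deposited values are a signal per gene: normalized counts, scaled by the authors, with no raw counts used here. The submitters' processing notes name FastQC, STAR, featureCounts, DESeq2 and GRCm38. The table's name mentions surrogate variables, and no adjustment for them is described. Of 26789 Ensembl identifiers, 26507 matched a symbol. Whether counting used strand is not given in the sources used here.

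Values were compared as log2(normalized count + 1) for genes with a mean of at least 10, with limma 3.58.1 (R 4.3.3; two-sided, Benjamini-Hochberg over all genes tested, threshold 0.1), which was tested on simulated data, and with exact permutation tests over libraries (Python 3.11.15). Fold changes on this scale understate those of low genes. P-values measure the spread between pooled libraries, each from its own litter by the methods. Lengths are unions of GENCODE M21 exons. Named were the 6 genes and the 3 genes most like each by Pearson's r. Of each list reported here, the 2 most abundant genes and those whose groups did not overlap were named. Most abundant in a list means the highest mean normalized count, without regard to length. Clec4e and Pf4 met the criterion of no overlap. Other genes named from the lists, such as low or absent markers and immunoglobulin chains, were chosen after their values were seen. The genes and lists were chosen with earlier results of these data known. Alternatives changed the pseudocount, filter, scaling, replicate block and libraries. Some cell type markers are not reported here.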

Additional observations from a re-analysis of the deposited data

How the results depend on the processing

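The absence of calls among the 6 genes held under each alternative, with limma adjusted p-values between 0.869 and 1.0. Across all genes, 0 passed an adjusted p of 0.1 except with a pseudocount of 0.1, where 3 did (Prdm4, Slc4a1ap and Gm12666, named after their values were seen, each listed at 0 in all libraries of 1 group), and with a mean of at least 50, where 1 did (Prdm4, with 12973 genes tested). Leaving out each library in turn gave 0 calls. With the replicate block, 0 genes passed and 468 had an unadjusted p under 0.05. With this block, standard errors of the 6 genes lay between 0.53 and 0.85, against 0.66 to 0.92 without it. Fcer1g and Fcgrt were higher in the E3–E12 diet library in all 3 pairs of the same number, Fcgr2b, Fcgr3 and Fcgr4 in 2 and Fcgr1 in 1. Libraries of the same number deviated from their group means with correlations of 0.26, 0.03 and 0.14. Each E3–E12 diet library correlated best with the control of its number, while control replicate 2 correlated best with E3–E12 diet replicate 3 (0.09). Whether the numbers mark a shared batch is not known, so the main test did not pair the libraries.

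Fcgr1, Fcgr3 and Fcgr2b had log2 fold changes of 0.181, 0.06 and 0.042 with quantile normalization and of 0.213, 0.104 and 0.085 relative to the microglia markers, against values below 0 as deposited, and Fcgr1 had 0.083 with equal library totals, a scaling that moved the median of all genes by 0.11. Without each library in turn, log2 fold changes ranged from -0.81 to 0.51 for Fcgr1, -0.93 to 0.50 for Fcgr3, -1.33 to 0.035 for Fcgr4, 0.17 to 1.35 for Fcer1g, -0.71 to 0.31 for Fcgr2b and 0.43 to 1.11 for Fcgrt. Without control replicate 2, an alternative added after seeing the data, log2 fold changes below 0 turned to 0.17 for Lyn, 0.346 for Inpp5d, 0.507 for B2m, 0.549 for Fcrls and 0.321 for Clec4n, and medians below 0 turned to 0.109 for the genes downstream of the receptors and 0.198 for the microglia markers; Clec4e (-1.10) and Pf4 (-2.93) kept their sign. The difference in the log2 ratio of activating receptors over Fcgr2b ranged from -0.16 to 0.20. The causes were not tested. By the longest transcript, chosen after seeing the data, the level per kb of Fcgr3 over Fcgr1 was 1.696 on the log2 scale and that of Fcgr1 over Fcgr2b -0.13, since only the lengths differ. At about 25 to 156 reads for Fcgr4, counting error adds to its spread.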
